A study of Mus musculus with 16 samples.

Results

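Messenger RNA of 10 enteroendocrine genes was followed in the proximal jejunum, the upper middle stretch of the small intestine, of male CBA/J mice aged 8 weeks. The genes were Chga, Chgb, Scg2, Tph1, Tac1, Sct, Cck, Gip, Sst and Neurod1, chosen by symbol as hormone and granule genes of enteroendocrine cells. The choice was made with earlier results of these data known, so their counts beside all tested genes are a description. All 10 were found among the 37620 gene IDs of the files, each under 1 ID, and all 10 passed the filter on low counts. The 4 groups of 4 libraries were irradiated mice on a methionine-adequate diet (8.5 Gy of gamma rays), unirradiated mice on that diet (0 Gy), irradiated mice on a methionine-supplemented diet (8.5 Gy, supplementation given as 300%) and unirradiated mice on the supplemented diet (0 Gy). The design text also names 6 days, which may count from the start of the diet or from irradiation. The labels name no batch, date or animal behind a library, so the p-values measure the spread between libraries.

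Enteroendocrine cells are scattered hormone-secreting cells of the gut epithelium. They sense nutrients, irritants and microbial products, and they release peptides and amines from dense-core granules to act on nearby nerves, glands and the pancreas. Subtypes are named by their main product. Enterochromaffin cells make serotonin, S cells secretin, I cells cholecystokinin, K cells the incretin GIP and D cells somatostatin, although single cells often hold several products.

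The libraries held 2.57 to 15.51 M (mega) counts. Of the 16, 3 were shallow, with 2.57 to 3.43 M counts, namely irradiated adequate replicate 2, unirradiated adequate replicate 1 and irradiated supplemented replicate 1. The others held at least 8.77 M. Small nucleolar RNAs took 7.18 to 10.72% of counts in irradiated against 2.93 to 4.03% in unirradiated libraries on the adequate diet. With supplementation they took 7.73 to 14.12% against 3.13 to 5.05%. Levels are CPM (counts per M counts) with totals scaled by TMM, a factor that evens out library composition. Differences were tested by quasi-likelihood F tests in edgeR, with p-values adjusted by Benjamini-Hochberg over all 16558 tested genes, and a gene was called higher or lower at an adjusted p under 0.05.

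Averaged over the 2 diets, 6 of the 10 genes rose with irradiation and 1 fell. Those that rose were the granule proteins Chga, Chgb and Scg2, the serotonin enzyme Tph1, the tachykinin gene Tac1 and the secretin gene Sct. The gene that fell was Sst, which encodes somatostatin. Of all tested genes, 15.7% were called higher and 15.3% lower in this comparison, 31% in all. The median log2 fold change of the 10 genes was 0.54, against 0.001 over all tested genes. The 6 and 1 also stood when totals were scaled without small, ribosomal and mitochondrial RNA, and when the 3 shallow libraries were left out. Since whole tissue was sequenced, more or fewer enteroendocrine cells and more or less RNA per cell cannot be told apart.

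On the adequate diet alone, 5 of the 10 genes rose and 0 fell, against a background of 7.13% of all tested genes called higher and 6.58% lower. On the supplemented diet alone, 4 rose and 0 fell, against 8.03% higher and 7.21% lower. Leaving out 1 library at a time moved the number of higher genes between 3 and 6 on the adequate diet and between 1 and 5 on the supplemented diet. Over all genes, the number called higher in those fits moved between 690 and 1408 and between 805 and 1821. With libraries scaled to the summed counts of 11 epithelial genes, 3 rose on the adequate diet and 1 on the supplemented diet, while calls over all genes fell to 453 and 640 higher, against 1180 and 1329 with TMM. The median log2 fold change over all genes under that scaling was 0.033 and 0.071, against 0.006 and 0.007 with TMM. The higher calls lost on each diet had log2 fold changes no smaller than before and larger standard errors. They were Tac1 (1.10, adjusted p = 0.118) and Scg2 (0.64, adjusted p = 0.17) on the adequate diet, and Chgb (0.80, adjusted p = 0.0823), Tph1 (0.91, adjusted p = 0.0623) and Sct (0.68, adjusted p = 0.0877) on the supplemented diet. The average over diets uses the same libraries as these comparisons and is not independent of them. Chgb, Tph1 and Sct were called on each diet, and no gene was called in opposite directions. The 4 libraries of each group did not overlap for 5 genes higher with irradiation on the adequate diet. There 9.34% of all tested genes were higher and 10.1% lower without overlap. These 5 were Chga, Chgb, Tph1, Sct and Neurod1, of which Chga and Neurod1 were not called, while the called Tac1 and Scg2 overlapped. On the supplemented diet 3 genes (Chga, Chgb and the uncalled Scg2) were higher without overlap, against 9.43% of all tested genes. The uncalled Sst was the 1 lower, against 9.23%.

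**Figure D1:**
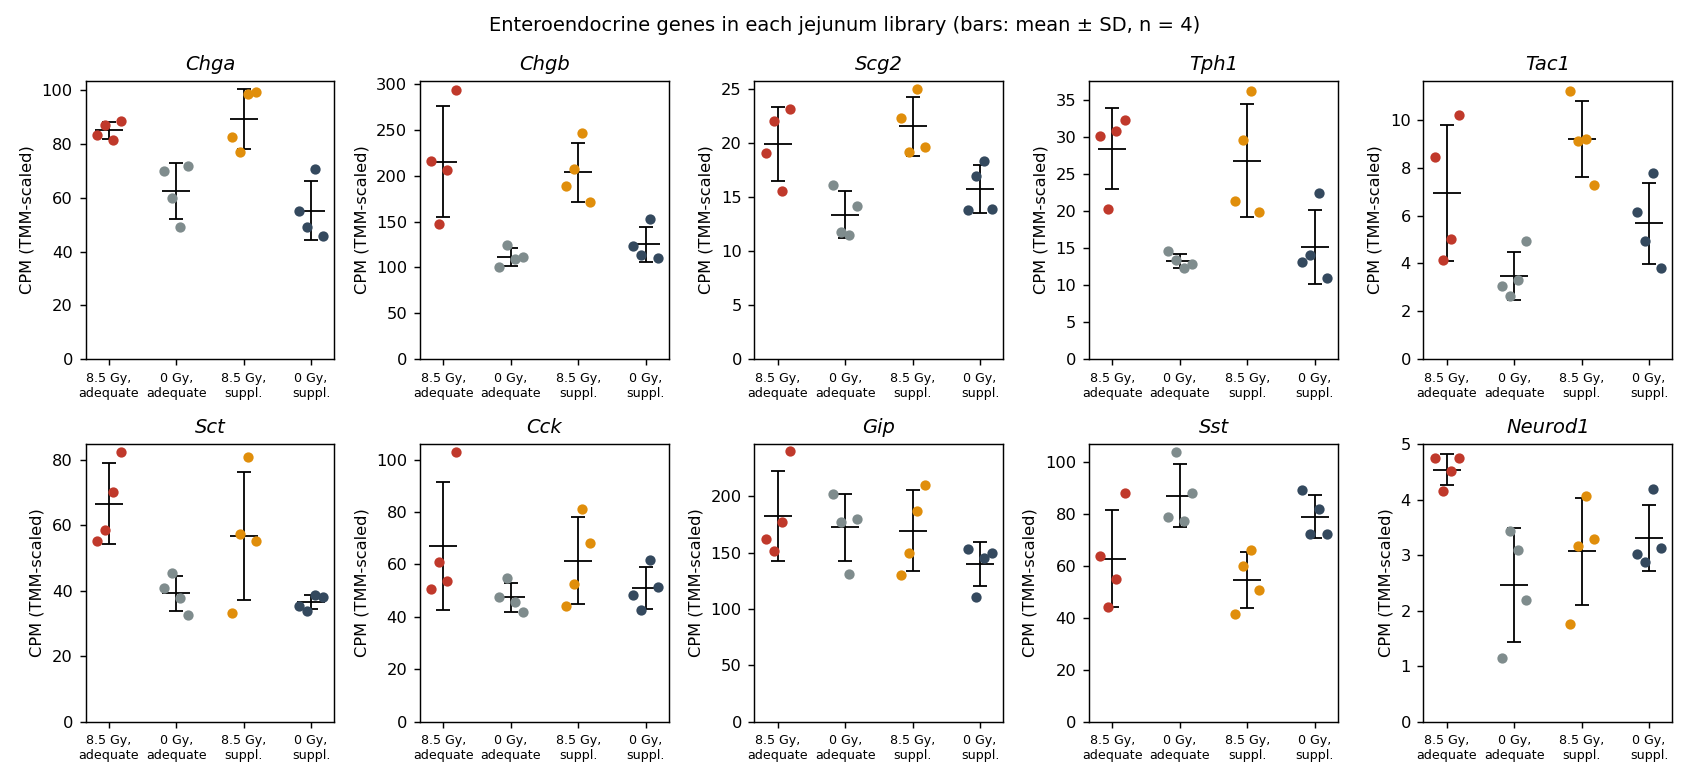
TMM-scaled CPM of the 10 genes, with 1 point per library and bars at the mean ± SD (n = 4), for irradiated and unirradiated mice on each diet. Chgb lies between 147 and 294 CPM in irradiated and between 101 and 125 CPM in unirradiated libraries of the adequate diet, without overlap, while Gip overlaps on each diet. Sst is lower in all irradiated libraries of the supplemented diet and overlaps on the adequate diet.

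The promoters of Chgb, Scg2 and Sst are shown because these 3 genes share an exact cAMP response element although their levels moved in opposite directions. The element, TGACGTCA, reads the same on both strands and is the site through which CREB family factors act. It was found in 3 of the 10 genes and in 1.79% of 32851 mouse promoter windows of the same length. Each window runs from 250 bases before to 50 bases after the gene's start, 5' to 3' on the gene's strand, from RefSeq on build GRCm38.p6, and capitals mark the element. The Chgb window lies at chr2:132781392-132781691 on the plus strand, with the element 72 bases before the start. The Scg2 window lies at chr1:79439977-79440276 on the minus strand, with the element 68 bases before the start. The Sst window lies at chr16:23890795-23891094 on the minus strand, with the element 48 bases before the start.
Chgb: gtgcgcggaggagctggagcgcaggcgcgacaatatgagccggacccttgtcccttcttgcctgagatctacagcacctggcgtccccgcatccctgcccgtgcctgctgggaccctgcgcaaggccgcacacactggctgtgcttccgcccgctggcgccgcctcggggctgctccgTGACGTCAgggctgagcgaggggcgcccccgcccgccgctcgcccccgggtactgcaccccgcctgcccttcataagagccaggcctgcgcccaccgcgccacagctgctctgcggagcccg
Scg2: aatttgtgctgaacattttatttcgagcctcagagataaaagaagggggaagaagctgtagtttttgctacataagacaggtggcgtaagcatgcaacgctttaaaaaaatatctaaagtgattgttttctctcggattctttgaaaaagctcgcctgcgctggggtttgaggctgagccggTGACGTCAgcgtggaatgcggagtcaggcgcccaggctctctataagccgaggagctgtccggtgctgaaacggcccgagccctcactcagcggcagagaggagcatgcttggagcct
Sst: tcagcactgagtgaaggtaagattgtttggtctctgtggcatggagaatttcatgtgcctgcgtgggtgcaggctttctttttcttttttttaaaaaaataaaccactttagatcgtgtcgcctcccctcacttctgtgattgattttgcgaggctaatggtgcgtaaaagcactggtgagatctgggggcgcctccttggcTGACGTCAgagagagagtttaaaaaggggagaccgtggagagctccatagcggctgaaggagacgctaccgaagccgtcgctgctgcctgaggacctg

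The shorter core TGACG, on either strand and including the cores inside the full element, was present in the windows of 7 genes, namely Chga, Chgb, Tph1, Tac1, Scg2, Cck and Sst, and in 20.8% of all windows. The E-box CAGATG, a sequence bound by NeuroD1 with its partners, was present on either strand in the windows of 3 genes, Sct, Tac1 and Cck, and in 17.2% of all windows. Tph1 had 2 windows and each other gene 1. These are matches of letters and no binding was measured.

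Of the granule proteins, chromogranin A (Chga) helps form dense-core granules and is the classical marker of enteroendocrine cells. Chga had 83.2, 87.1, 81.5 and 88.5 CPM in irradiated libraries of the adequate diet, against 69.8, 60, 49.1 and 71.7 CPM in unirradiated ones. It had 82.7, 77.1, 98.6 and 99.2 CPM in irradiated libraries of the supplemented diet, against 55.1, 49.1, 70.8 and 45.9 CPM in unirradiated ones. All irradiated libraries lay above all unirradiated ones of the same diet. The log2 fold change was 0.70 ± 0.15 on the supplemented diet (SE, adjusted p = 0.00468) and 0.45 ± 0.15 on the adequate diet, where the adjusted p of 0.054 missed the threshold. On that diet Chga spread little among irradiated libraries, at 85.1 ± 3.29 CPM (SD, n = 4), against 62.6 ± 10.4 CPM in unirradiated ones.

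Chromogranin B (Chgb), a second acidic granule matrix protein, had the highest mean CPM of the 10 genes after irradiation. It had 216, 147, 206 and 294 CPM in irradiated libraries of the adequate diet, against 101, 125, 109 and 111 CPM in unirradiated ones. It had 189, 208, 247 and 172 CPM in irradiated libraries of the supplemented diet, against 124, 114, 153 and 110 CPM in unirradiated ones. The groups did not overlap on either diet. Chgb rose by 0.96 ± 0.18 on the log2 scale on the adequate diet (SE, adjusted p = 0.00281), a 1.94-fold difference. It rose by 0.71 ± 0.18 on the supplemented diet (adjusted p = 0.0144), and this call was lost without irradiated supplemented replicate 3 (adjusted p = 0.0595) or unirradiated supplemented replicate 4 (adjusted p = 0.0533).

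Secretogranin II (Scg2), the precursor of secretoneurin, was the lowest of the 3 granule genes. It had 19.0, 22, 15.5 and 23.1 CPM in irradiated libraries of the adequate diet, against 16.1, 11.7, 11.5 and 14.1 CPM in unirradiated ones, with 1 irradiated library below the highest unirradiated one. It had 22.3, 19.1, 25.0 and 19.6 CPM in irradiated libraries of the supplemented diet, against 13.8, 16.9, 18.3 and 13.9 CPM in unirradiated ones, without overlap. Scg2 rose on the adequate diet by 0.59 ± 0.16 on the log2 scale (SE, adjusted p = 0.0207). With supplementation its log2 fold change was 0.45 ± 0.15 with an adjusted p of 0.0545. The adequate call was lost without irradiated replicate 4 (adjusted p = 0.0558) or unirradiated replicate 2 or 3 (adjusted p = 0.0697 and 0.0653), while the average over diets was 0.52 ± 0.11 (adjusted p = 0.00196).

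Tph1 encodes tryptophan hydroxylase 1, which catalyses the rate-limiting step of serotonin synthesis in enterochromaffin cells. It had 30.2, 20.3, 30.9 and 32.3 CPM in irradiated libraries of the adequate diet, against 14.6, 13.4, 12.3 and 12.8 CPM in unirradiated ones. It had 21.4, 29.6, 36.3 and 19.9 CPM in irradiated libraries of the supplemented diet, against 13.1, 14.1, 22.4 and 11 CPM in unirradiated ones. On the adequate diet the lowest irradiated library stood clear of every unirradiated one, and on the supplemented diet unirradiated replicate 3 overlapped the irradiated group. Tph1 had the largest fitted rise of the 10 genes on each diet, 1.14 ± 0.22 on the adequate diet (log2, SE, adjusted p = 0.00371) and 0.84 ± 0.22 on the supplemented diet (adjusted p = 0.0149). The supplemented call was lost without any 1 of irradiated supplemented replicates 2 and 3 and unirradiated supplemented replicates 1 and 4, with adjusted p-values of 0.0507 to 0.0704.

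Tac1, the precursor of substance P and neurokinin A, is made by enterochromaffin cells and by enteric neurons. It had 8.45, 4.15, 5.02 and 10.2 CPM in irradiated libraries of the adequate diet, against 3.07, 2.65, 3.30 and 4.95 CPM in unirradiated ones. It had 11.2, 9.13, 9.23 and 7.27 CPM in irradiated libraries of the supplemented diet, against 6.17, 4.94, 7.79 and 3.81 CPM in unirradiated ones. Each pair of groups overlapped by 1 irradiated library. Counts were low, down to 10 in irradiated adequate replicate 2 and 8 in unirradiated adequate replicate 1. Tac1 rose by 1.03 ± 0.29 on the adequate diet (log2, SE, adjusted p = 0.0266), and the supplemented diet gave 0.68 ± 0.27 (adjusted p = 0.102). The adequate call was lost without any 1 of 5 of the 8 libraries of that comparison, namely irradiated replicates 1 and 4 and unirradiated replicates 1, 2 and 3, with adjusted p-values of 0.0543 to 0.0916. The average over diets was 0.85 ± 0.20 (adjusted p = 0.00389).

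Among the peptide hormones, Sct encodes secretin, which drives bicarbonate secretion by the pancreas. It had 55.4, 58.5, 70.3 and 82.5 CPM in irradiated libraries of the adequate diet, against 41.0, 45.5, 37.8 and 32.6 CPM in unirradiated ones, without overlap. It had 33.2, 57.5, 80.9 and 55.3 CPM in irradiated libraries of the supplemented diet, against 35.4, 34, 38.8 and 38.0 CPM in unirradiated ones. There, irradiated replicate 1, a shallow library, lay below all 4 unirradiated libraries and the other 3 above them. Sct rose by 0.77 ± 0.20 on the adequate diet (log2, SE, adjusted p = 0.0166), a call lost without unirradiated replicate 4 (adjusted p = 0.0525). It rose by 0.65 ± 0.20 on the supplemented diet (adjusted p = 0.0346). This call was lost without any 1 of the 4 unirradiated libraries or without irradiated replicate 2 or 3, with adjusted p-values of 0.0538 to 0.155. The same call was lost with limma voom in place of edgeR (0.58, adjusted p = 0.056). The average over diets was 0.71 ± 0.14 (adjusted p = 0.00119).

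Cholecystokinin (Cck), which empties the gallbladder and stimulates pancreatic enzyme secretion, had 50.5, 61, 53.7 and 103 CPM in irradiated libraries of the adequate diet, against 47.5, 54.8, 45.6 and 41.9 CPM in unirradiated ones. It had 44.3, 52.4, 81.2 and 68.1 CPM in irradiated libraries of the supplemented diet, against 48.4, 42.6, 61.8 and 51.5 CPM in unirradiated ones. The groups overlapped on each diet, and irradiated adequate replicate 4 held the highest value. The average log2 fold change over diets was 0.39 with a 95% interval of 0.06 to 0.72 (adjusted p = 0.0654), so Cck was not called.

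Gip encodes the incretin that K cells release after a meal. It had 162, 151, 177 and 240 CPM in irradiated libraries of the adequate diet, against 202, 177, 131 and 180 CPM in unirradiated ones, and 130, 150, 187 and 210 CPM in irradiated libraries of the supplemented diet, against 153, 111, 145 and 150 CPM in unirradiated ones. The groups overlapped on each diet. The average log2 fold change was 0.18 with a 95% interval of -0.10 to 0.46 (adjusted p = 0.315).

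Sst encodes somatostatin, which inhibits the release of most other gut hormones, and it is made by D cells and by some enteric neurons. It had 64.0, 44.4, 55.0 and 88.0 CPM in irradiated libraries of the adequate diet, against 79.0, 104, 77.3 and 88.1 CPM in unirradiated ones. It had 41.4, 60.2, 66.2 and 50.9 CPM in irradiated libraries of the supplemented diet, against 89.4, 72.3, 82.0 and 72.5 CPM in unirradiated ones. On the supplemented diet all irradiated libraries lay below all unirradiated ones, and on the adequate diet irradiated replicate 4 alone lay inside the unirradiated range. Neither diet alone passed the threshold in edgeR. The log2 fold change was -0.46 ± 0.18 on the adequate diet (SE, adjusted p = 0.103) and -0.52 ± 0.18 on the supplemented diet (adjusted p = 0.0639). The average over diets was -0.49 ± 0.13 (adjusted p = 0.00862), a call that ended when libraries were scaled to the summed counts of 11 epithelial genes (-0.42, adjusted p = 0.124). Without irradiated adequate replicate 4, the adequate diet gave -0.67 (adjusted p = 0.0141). DESeq2 in place of edgeR called Sst lower on the supplemented diet (-0.53, adjusted p = 0.0335).

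Neurod1, a transcription factor that acts downstream of Neurog3 in enteroendocrine differentiation, had the lowest level. It had 4.75, 4.15, 4.51 and 4.75 CPM in irradiated libraries of the adequate diet, against 1.15, 3.44, 3.09 and 2.19 CPM in unirradiated ones. It had 1.76, 3.16, 4.06 and 3.30 CPM in irradiated libraries of the supplemented diet, against 3.03, 2.88, 4.20 and 3.13 CPM in unirradiated ones. The groups were apart on the adequate diet and overlapped on the supplemented diet. The lowest values rest on 3 counts in unirradiated adequate replicate 1 and 6 counts in irradiated supplemented replicate 1. The log2 fold change was 0.79 ± 0.26 on the adequate diet (SE, adjusted p = 0.0536) and -0.04 ± 0.25 on the supplemented diet (adjusted p = 0.938), so neither was called by edgeR. DESeq2 and limma voom called the adequate one, with adjusted p-values of 0.043 and 0.0372, and they also called Chga there, with 0.0405 and 0.0473.

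**Figure D2:**
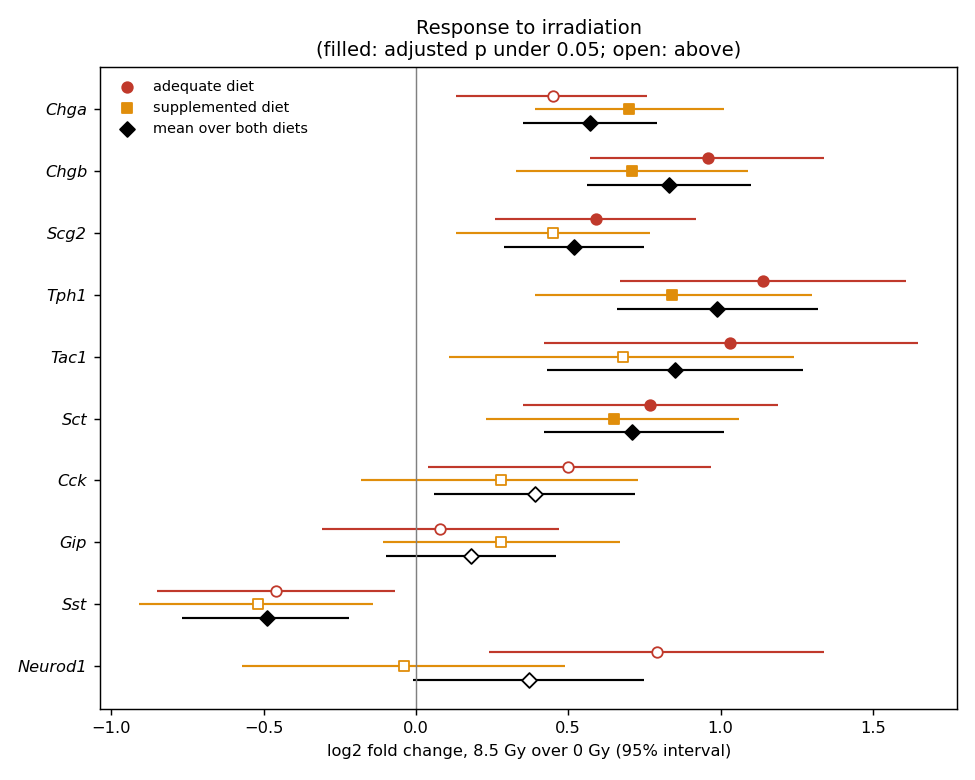
Log2 fold change of each gene, irradiated over unirradiated, with its 95% interval, on the adequate diet, on the supplemented diet and averaged over both diets. Filled symbols passed an adjusted p of 0.05. Of the averages, 6 lie above 0 and pass, Sst lies below 0 at -0.49 and passes, and Neurod1, Cck and Gip do not pass.

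The make-up of the 10 genes' summed level was also described, since the share of a gene in that sum does not depend on the scaling of a library. No test was run on these shares, and a gene's share also falls when the others rise. Sst took 7.40 to 9.23% of the sum in irradiated libraries of the adequate diet, against 13.7 to 17.4% in unirradiated ones. It took 7.17 to 9.04% in irradiated libraries of the supplemented diet, against 13.6 to 16.5% in unirradiated ones. Every irradiated library was below every unirradiated one on each diet, including irradiated adequate replicate 4, in which Sst took 9.11%. Chgb took 24.5 to 31.1% in irradiated against 17.6 to 22.7% in unirradiated libraries of the adequate diet, without overlap. With supplementation Chgb took 24.4 to 32.7% against 22 to 25.3%, with overlap. Gip took 23.4 to 25.3% in irradiated libraries of the adequate diet, against 27.3 to 35.1% in unirradiated ones, and its ranges overlapped on the supplemented diet.

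**Figure D3:**
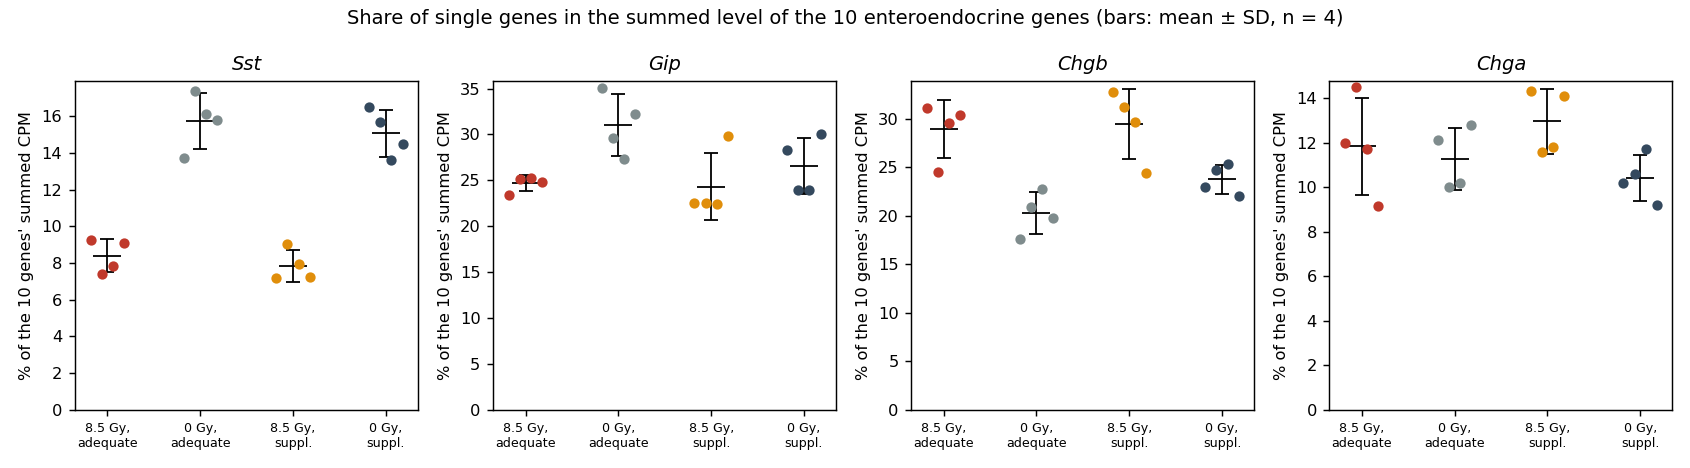
Share of Sst, Gip, Chgb and Chga in the summed CPM of the 10 genes, in percent, with 1 point per library and bars at the mean ± SD (n = 4). The Sst share averages 8.40% in irradiated and 15.8% in unirradiated libraries of the adequate diet. With supplementation these averages are 7.83% and 15.1%.

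Compared between genes as CPM per kilobase of effective transcript length, Gip was highest in all 4 groups and Neurod1 lowest. Gip averaged 308 CPM per kilobase in irradiated and 291 in unirradiated libraries of the adequate diet. In both unirradiated groups Sst came second, at 158 CPM per kilobase on the adequate and 143 on the supplemented diet, clear of its neighbours, and Sct, Cck, Chgb, Chga, Tph1, Scg2, Tac1 and Neurod1 followed in that order. In both irradiated groups Sct came second, at 148 CPM per kilobase on the adequate and 126 on the supplemented diet, and Sst after it, at 114 and 99.0. After irradiation the ranges of Sct and Sst, of Sst and Cck, of Cck and Chgb, and of Scg2 and Tac1 overlapped on each diet. These ranges do not compare genes within a library, and no test was run between genes. Without irradiation, Sct and Cck overlapped on each diet, as did Chgb and Chga on the adequate diet and Scg2 and Tac1 on the supplemented diet.

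Genes of granule formation and prohormone processing showed the most calls among the other enteroendocrine lists. Averaged over diets, 11 of 23 tested genes rose and 1 fell, where 15.7% of all tested genes rose and 15.3% fell. The median log2 fold change was 0.37, against 0.001 over all tested genes. The prohormone convertase Pcsk1, which cuts hormone precursors, averaged 17.1 ± 2.72 CPM in irradiated and 10.7 ± 1.13 CPM in unirradiated libraries of the adequate diet (SD, n = 4 each), and 16.8 ± 1.56 and 11.9 ± 1.73 CPM on the supplemented diet. Its average log2 fold change was 0.60 ± 0.10 (SE, adjusted p = 0.000274). Ptprn2, a granule membrane protein, averaged 31.1 ± 5.58 CPM in irradiated and 20.1 ± 2.42 CPM in unirradiated libraries of the adequate diet, and 33.6 ± 2.98 and 18.7 ± 2.14 CPM on the supplemented diet (log2 0.75 ± 0.09, adjusted p = 2.92e-05). Slc18a1, the vesicular monoamine transporter that loads serotonin into granules, averaged 17.8 ± 3.78 CPM in irradiated and 9.74 ± 1.35 CPM in unirradiated libraries of the adequate diet, and 13.5 ± 4.08 and 6.99 ± 1.06 CPM on the supplemented diet (0.91 ± 0.15, adjusted p = 0.000285).

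The other granule genes that rose were Scg5 (0.85), Rab3c (0.73), Rab3d (0.63), Syt7 (0.55), Scgn (0.52), Resp18 (0.50), Pam (0.49) and Pcsk2 (0.47), given as average log2 fold changes. Pam amidates the ends of peptide hormones, Scg5 is the chaperone of Pcsk2, and the Rab3 proteins and Syt7 act in granule release. Qdpr, which regenerates the cofactor of tryptophan hydroxylase, fell by 0.28 on the log2 scale (adjusted p = 0.00671). Ddc, the enzyme after Tph1 in serotonin synthesis, is also made by absorptive cells and averaged 68.3 ± 6.39 CPM in irradiated and 67.3 ± 30.1 CPM in unirradiated libraries of the adequate diet, and 71.9 ± 19.8 and 86.2 ± 5.31 CPM with supplementation, without a call. On each diet alone, 6 of 23 granule genes rose on the adequate diet, where 7.13% of all tested genes did, and 9 on the supplemented diet, where 8.03% did. None fell, against 6.58% and 7.21% of all tested genes. Whole tissue was sequenced, so the part of other cells in these granule genes, as in the transcription factors below, was not tested.

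Of the transcription factors of the lineage, 5 of 13 tested rose on average over diets and 0 fell, against 15.7% and 15.3% of all tested genes, with a median of 0.49. Rfx6, a factor of hormone gene expression, averaged 3.98 ± 1.99 CPM in irradiated and 2.15 ± 0.817 CPM in unirradiated libraries of the adequate diet, and 4.54 ± 0.526 and 2.32 ± 0.751 CPM on the supplemented diet. Its average log2 fold change was 0.95 ± 0.23 (SE, adjusted p = 0.00501). The others were Myt1 (0.67), Pax6 (0.67), Rfx3 (0.61) and Foxa1 (0.49). Neurog3, which starts the enteroendocrine fate, was at 1.38 ± 0.885 CPM in irradiated and 1.75 ± 0.292 CPM in unirradiated libraries of the adequate diet, and at 0.997 ± 0.693 and 1.27 ± 0.407 CPM on the supplemented diet, and was not called. Alone, the adequate diet gave 1 call of 13 (Rfx3), against 7.13% of all tested genes called higher, and the supplemented diet 2 (Rfx3 and Myt1), against 8.03%, so these counts lie near the background.

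Of the nutrient and irritant sensors, 2 of 8 tested rose and 1 fell, with a median of 0.19, and these 3 calls lie near the 31% of all tested genes called in either direction. Trpa1, the irritant channel of enterochromaffin cells, averaged 10.6 ± 2.68 CPM in irradiated and 5.02 ± 1.13 CPM in unirradiated libraries of the adequate diet, and 9.52 ± 1.3 and 6.13 ± 0.83 CPM on the supplemented diet. It rose by 0.86 ± 0.14 on the log2 scale (SE, adjusted p = 0.000232). Its groups did not overlap on either diet, where 9.34% (adequate) and 9.43% (supplemented) of all tested genes were higher without overlap. Adra2a, the catecholamine receptor of those cells, rose by 1.07 ± 0.19 (adjusted p = 0.00058). Trpa1 and Adra2a were the 2 of 8 called on each diet alone, where 7.13% and 8.03% of all tested genes were called higher. Slc5a1, the sodium glucose transporter, which absorptive cells also make in bulk, fell by 0.73 (adjusted p = 0.0225).

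Of 4 other gut hormones tested, where 15.7% of all tested genes rose and 15.3% fell, ghrelin (Ghrl) rose by 0.57 ± 0.13 on average (log2, SE, adjusted p = 0.00388) and 0 fell. Glucagon (Gcg), the gene of the incretin GLP-1, averaged 23.1 ± 11 CPM in irradiated and 19.9 ± 4.13 CPM in unirradiated libraries of the adequate diet and was not called. Among 9 tested genes for receptors, uptake and breakdown of these products, 1 rose and 1 fell, no more than the 31% of all tested genes called. Maoa, which degrades serotonin, rose by 0.51 on the log2 scale (adjusted p = 0.0133), and the serotonin receptor Htr2b fell by 0.62 (adjusted p = 0.0339). The serotonin transporter Slc6a4 averaged 58.0 ± 9.63 CPM in irradiated and 59.7 ± 17.0 CPM in unirradiated libraries of the adequate diet, and 55.9 ± 8.02 and 78.2 ± 7.03 CPM on the supplemented diet, without a call.

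**Figure D4:**
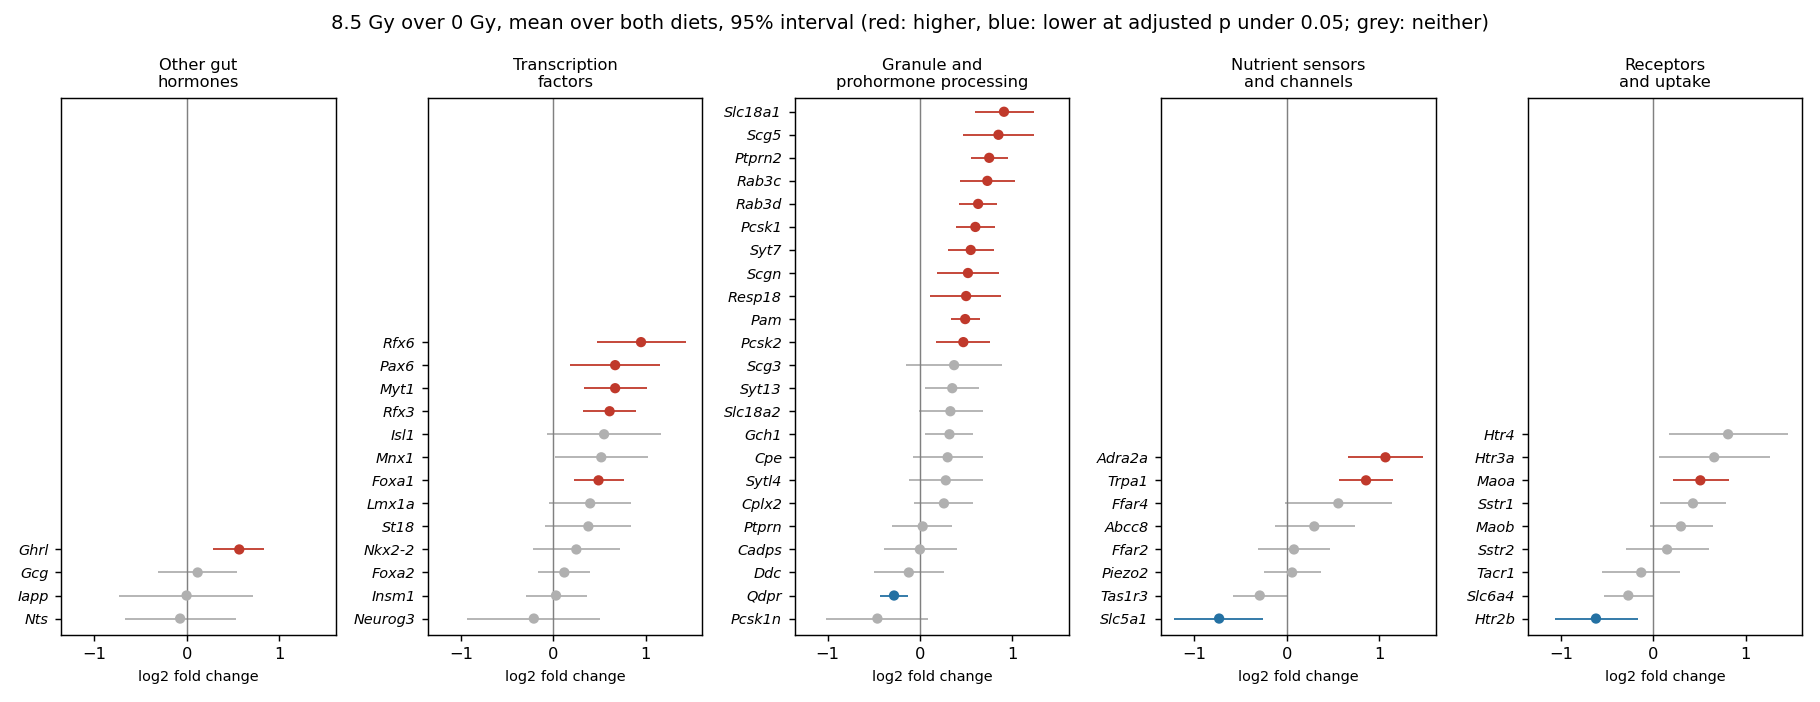
Average log2 fold change over both diets, irradiated over unirradiated, with 95% intervals, for other hormones, transcription factors, granule and processing genes, sensors, and receptors and uptake. Red points passed an adjusted p of 0.05 upward and blue points downward. Of 23 granule and processing genes, 11 are red and 1 is blue.

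Marker lists of other cells were read beside these results. The 11 epithelial genes summed to 5550 to 8690 CPM in irradiated and 6930 to 7950 CPM in unirradiated libraries of the adequate diet, and to 5710 to 9940 and 7160 to 8810 CPM on the supplemented diet. Averaged over diets, Krt18 (0.78) rose and Cdx2 (-0.46) and Cldn3 (-0.56) fell among the 11 tested, and the median was 0.02. These calls lie near the 31% of all tested genes called in either direction. Irradiated adequate replicate 4 and irradiated supplemented replicate 1 had the lowest epithelial sums, and irradiated adequate replicate 4 also held that group's highest level of Chga, Chgb, Tph1, Tac1, Scg2, Sct, Cck, Gip and Sst. Irradiated supplemented replicate 1 went the other way for part of the genes, as its group's lowest library for Sct, Cck, Gip, Sst and Neurod1 and its highest for Tac1. Without those 2 libraries, an alternative added after seeing the data, 7 of the 10 genes were called higher and 1 lower on average over diets, Cck being the added one (0.30, adjusted p = 0.0476). Over all genes, 2553 were then called higher and 2529 lower, against 2601 and 2535 with all libraries. The adequate diet alone then had 3 of the 10 higher and 1 lower. Over all genes that diet then had 1445 higher and 1341 lower, against 1180 and 1090 with all libraries. In the broader secretory lineage, 2 of 7 tested genes rose, Spdef (0.65) and Atoh1 (0.52), and 2 fell, Dll1 (-0.30) and Hes6 (-0.50), against 15.7% of all tested genes higher and 15.3% lower.

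Enteric neurons share Tac1, Sst, Chga, Chgb and Scg2 with enteroendocrine cells. The 15 neuronal genes summed to 24.5 to 39.2 CPM in irradiated and 27.4 to 31.8 CPM in unirradiated libraries of the adequate diet, and to 37.0 to 56.6 and 28.9 to 38.6 CPM on the supplemented diet. Of 10 tested, Snap25 (0.70) and Ret (0.36) rose on average and 0 fell, with a median of 0.20, near the 15.7% of all tested genes called higher. No neuronal gene was called on either diet alone, where the medians were 0 on the adequate and 0.36 on the supplemented diet. None of the 15 neuronal genes was at 0 throughout a group. The part of neuronal RNA in the results for Tac1, Sst and the granule genes was not tested.

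Mast cells of mice also make Tph1. Of 10 mast cell genes 4 were tested, where 15.7% of all tested genes rose and 15.3% fell on average over diets. The proteases Mcpt1 (-2.68), Mcpt2 (-2.53) and Cpa3 (-1.66) fell on average, while Tph1 rose. Kit (0.63), which interstitial cells of Cajal also make, rose and held most of the list's sum of 23.2 to 30.2 CPM in irradiated and 21.5 to 26.1 CPM in unirradiated libraries of the adequate diet, and of 23.8 to 40.8 and 20.6 to 34.3 CPM on the supplemented diet. Mcpt1 averaged 1.09 ± 0.731 CPM in irradiated and 4.05 ± 0.917 CPM in unirradiated libraries of the adequate diet. The part of mast cell RNA in the result for Tph1 was not tested. The pancreatic islet markers Ins1, Ins2 and Ppy had 0 counts in all 16 libraries.

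**Figure D5:**
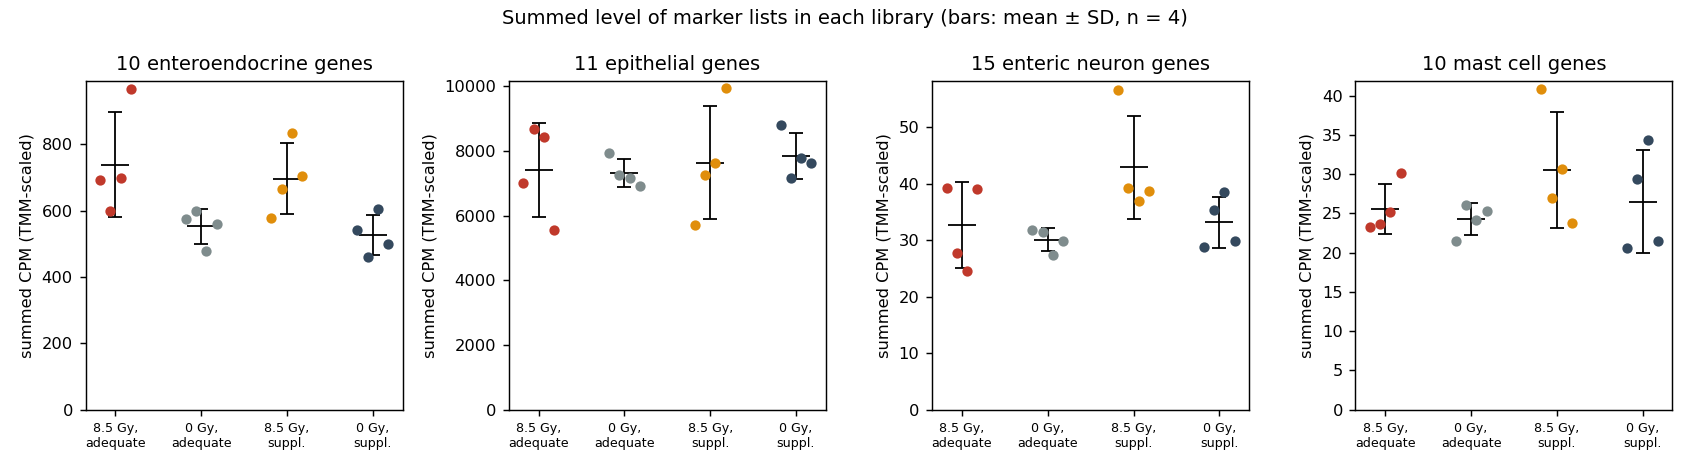
Summed CPM of the 10 enteroendocrine genes and of epithelial, enteric neuron and mast cell marker lists, with 1 point per library and bars at the mean ± SD (n = 4). The enteroendocrine sum is 600 to 966 CPM in irradiated and 479 to 598 CPM in unirradiated libraries of the adequate diet, and 578 to 836 and 462 to 604 CPM with supplementation, where the ranges overlap. The epithelial sums overlap on each diet.

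The diet comparisons asked whether methionine supplementation changed these genes. In unirradiated mice 0 of the 10 genes were called, against 0.169% of all tested genes higher and 0.0302% lower, and 1 had an unadjusted p under 0.05. The libraries of the 2 diets overlapped for all 10 genes, while 4.71% of all tested genes were higher and 4.43% lower without overlap. The gene with that p was Tac1, at 5.68 ± 1.71 CPM on the supplemented and 3.49 ± 1.01 CPM on the adequate diet (SD, n = 4 each), with a log2 fold change of 0.68 ± 0.29 (SE, adjusted p = 0.366). In irradiated mice 0 of the 10 were called, as was 0% of all tested genes, and 0 had an unadjusted p under 0.05. Neurod1 was the lone gene whose irradiated groups were apart, at 3.07 ± 0.959 CPM on the supplemented and 4.54 ± 0.284 CPM on the adequate diet, where 1.44% of all tested genes were higher and 1.7% lower without overlap. Its log2 fold change was -0.51 ± 0.25 (adjusted p = 0.937). DESeq2 and limma voom also called 0 of the 10 genes in either diet comparison.

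The difference between the responses to radiation on the 2 diets was tested as an interaction, the supplemented response minus the adequate one. It called 0 of the 10 genes and 0% of all tested genes, and DESeq2 and limma voom also called 0 of the 10. Neurod1 alone had an unadjusted p under 0.05, with a difference of -0.83 ± 0.36 on the log2 scale (SE, adjusted p = 1). The 95% intervals of the difference show what size these libraries leave possible. They ran from -0.79 to 0.29 for Chgb, -0.95 to 0.36 for Tph1, -0.71 to 0.46 for Sct and -0.19 to 0.69 for Chga. For Tac1 the interval was -1.19 to 0.48, for Scg2 -0.6 to 0.32 and for Neurod1 -1.59 to -0.07. For Cck it was -0.88 to 0.42, for Gip -0.36 to 0.75 and for Sst -0.61 to 0.49. The calls that differ between the diets, such as Tac1 and Scg2 on the adequate diet and Chga on the supplemented diet, were therefore not shown to differ.

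Within groups the 10 genes varied together to a moderate degree. As deviations from the group mean over the 16 libraries, 41 of 45 pairs had a positive Pearson r, with a median of 0.42. Pairs ranged from -0.29 for Scg2 with Neurod1 to 0.86 for Chgb with Sst, and Chgb with Tph1 and Sct with Cck each had 0.79. The libraries share their depth, scaling and tissue make-up across genes, so these values are a description. The mean deviation of the 10 genes was highest in irradiated adequate replicate 4, at 0.363 on the log2 scale, and lowest in irradiated supplemented replicate 1, at -0.267. The 8 genes most like this mean deviation, of 13432 compared over 16 libraries, were Arl4c (r = 0.88), Pitpnc1 (0.87), Ltbp4 (0.86), Acvrl1 (0.85), Sh3pxd2a (0.85), Lpcat2 (0.83), Col27a1 (0.83) and Cd34 (0.83). None of these 8 was in any enteroendocrine or other list used here. Those lists held no set for connective tissue or blood vessels, so absence from them does not place the 8 genes. Which cells make them was not tested.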

How the data were processed

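RNA from 16 libraries of mouse proximal jejunum was depleted of ribosomal RNA, fragmented and built into libraries with a small RNA protocol, per the labels' protocols. Bowtie2 2.2.9, RSEM 1.3.0, edgeR 3.2.4 and build NCBIM37 are named per the submitters' processing notes. The deposited values used are RSEM expected counts (estimated counts per gene, 1 file per library), with an effective length in bases, both per the file headers. RSEM shares reads among genes they fit, and no enteroendocrine gene had counts identical to another gene.

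Expected counts were rounded. Genes passing filterByExpr over the 4 groups (16558) were scaled by TMM and fitted with edgeR 4.0.16 (R 4.3.3, glmQLFit robust, glmQLFTest, two-sided), 1 mean per group over all 16 libraries. Alternatives used DESeq2 1.42.0, limma 3.58.1 voom, other scalings, filters and left-out libraries. The procedure was tested on simulated data. SE is the log2 fold change divided by the square root of F. CPM uses TMM-scaled totals. Symbols came from GENCODE M21, on a later build than the files, for 32897 of 37620 IDs, so no position of the files is given. Replicate numbers follow deposit order and pair no libraries. Libraries of a group differed by at least 9.48 times counting error (chi-square per degree of freedom), so none was a copy.

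The genes and all lists were chosen with earlier results of these data known. Named genes are the 10, the list members called in a radiation comparison, a few further list members named as context after their values were seen, and the 8 most like the 10 (highest r, mean log2 CPM of at least 1). Some results that this rule names are not reported here.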

Additional observations from a re-analysis of the deposited data

How the results depend on the processing

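On average over diets, 6 or 7 genes were higher under every setting, and 1 was lower except with epithelial scaling (0). On the adequate diet (5 higher, 0 lower), 3 were higher with epithelial scaling, 2 at an adjusted p under 0.01, and 3 higher with 1 lower without the 2 libraries lowest in epithelial genes. On the supplemented diet (4 higher, 0 lower), 1 was higher with epithelial scaling, 1 at an adjusted p under 0.01, and 2 higher with 1 lower when only the 2 groups compared were fitted, while DESeq2 called 1 lower. Over all genes, the cut at 0.01 left 485 higher on the adequate and 577 on the supplemented diet. The adequate diet without the 2 libraries had 1445 higher and 1341 lower over all genes. Over all genes on the supplemented diet, the 2-group fit had 1085 higher and 924 lower, and DESeq2 1501 and 1396. Leaving out 1 library at a time gave 3 to 6 higher and 0 to 1 lower on the adequate diet, 1 to 5 and 0 to 1 on the supplemented diet, 6 to 7 and 1 on average, and 0 for diet and interaction. Irradiated adequate replicate 4 and unirradiated adequate replicate 3 each left 3 higher, and irradiated supplemented replicate 3 and unirradiated supplemented replicate 4 each left 1. Over all genes, these fits called 1273, 868, 846 and 830 higher, in that order, on the diet of the library left out. With epithelial scaling calls over all genes also fell, to 453 higher on the adequate and 640 on the supplemented diet, against 1180 and 1329. The median log2 fold change over all genes was then 0.033 and 0.071, against 0.006 and 0.007. The higher calls lost on each diet had fold changes no smaller and larger standard errors. The Sst call lost on average over diets went from -0.49 to -0.42. Why these calls were lost was not tested.

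Log2 fold changes that turned sign were all uncalled. Without the 2 libraries lowest in epithelial genes these were Gip with radiation on the adequate diet (-0.08), Neurod1 with radiation on the supplemented diet (0.08), Chgb (0.14), Tph1 (0.04), Sct (0.07), Cck (0.30), Gip (0.16) and Sst (0.11) with diet after irradiation, and Sct (0.17), Cck (0.19) and Sst (0.25) in the interaction. Neurod1 on the supplemented diet also turned with limma voom (0.0015) and without the libraries under 4 M counts (0.09). Leaving out 1 library at a time moved Gip with radiation on the adequate diet from -0.08 to 0.17, Neurod1 on the supplemented diet from -0.20 to 0.09 and Tph1 with diet unirradiated from -0.05 to 0.33. With diet after irradiation, the ranges were -0.23 to 0.10 for Chgb, -0.28 to 0.03 for Tph1, -0.29 to 0.18 for Cck, -0.23 to 0.06 for Gip and -0.33 to 0.0022 for Sst. In the interaction they were -0.35 to 0.05 for Sct, -0.40 to 0.07 for Cck and -0.19 to 0.15 for Sst. No paired analysis was possible because replicate numbers follow deposit order. Depth limits Neurod1 and Tac1 most, with as few as 3 and 8 counts in a library.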
